A study of Homo sapiens with 24 samples.

Results

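The comparison described here asks where 2 leukemia cell lines answered the same drug combination differently. MOLM-14 and MV4-11 are acute myeloid leukemia lines that carry an internal tandem duplication of the receptor kinase FLT3. MV4-11 has only the mutant FLT3 allele, whereas MOLM-14 keeps a wild-type allele beside it. Both also carry a fusion of KMT2A, with MLLT3 in MOLM-14 and with AFF1 in MV4-11. Cells were given both drugs for 24 hours (Combination) or DMSO alone (Control), with 3 biological replicates per line and treatment and 1 Affymetrix U133 Plus 2.0 array per culture. SAHA (vorinostat) is an inhibitor of histone deacetylases, and ABT-869 (linifanib) one of receptor kinases such as FLT3. As single agents they were used at 3 nM ABT-869 and 6 µM SAHA, and the doses inside the combination are not restated in the methods. The comparison uses 12 of the 24 arrays, chosen by their titles: MOLM-14 Combination, MOLM-14 Control, MV4-11 Combination and MV4-11 Control. Each line is 1 cell line, so a difference between them is one between these lines and not between FLT3 genotypes at large.

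For each probe set, the response of a line is its mean log2 signal with the combination minus that in DMSO, and the quantity reported is the MOLM-14 response minus the MV4-11 response. A positive difference can mean a larger rise in MOLM-14, a smaller fall in MOLM-14, or opposite movement. Both responses are therefore given beside it for the genes described with their signals. Where a gene is given by its difference alone, that value does not show which line moved. Signals under 32 were set to 32 before the logarithm. FLT3 with the duplication signals without its ligand, through STAT5, the MAP kinases ERK1/2 and the PI3 kinase pathway. Its inhibition in these cells is known to lower STAT5 targets such as PIM1 and to slow entry into the cell cycle. Histone deacetylase inhibitors raise histone acetylation and change the expression of many genes in both directions, among them inhibitors of cyclin-dependent kinases.

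Of 54613 probe sets, 5167 (9.46%) had a response that differed between the lines at an adjusted p under 0.05 by limma, with Benjamini-Hochberg adjustment over all of them. The difference was positive for 2444 (4.48%) and negative for 2723 (4.99%), and at least 2-fold for 847 (1.55%) and 707 (1.29%) of these. With each array centred on its own median the calls were 1178 positive and 2336 negative, so that the positive share was 33.5% in place of 47.3%. The median difference over all probe sets was 0.00. In MOLM-14 alone 6071 probe sets (11.1%) responded, 3193 upward (5.85%) and 2878 downward (5.27%), and in MV4-11 alone 9248 (16.9%), 4985 upward (9.13%) and 4263 downward (7.81%). The most frequent pattern among the positive differences was a fall in MV4-11 with no call in MOLM-14, seen in 1189 of 2444 probe sets. A rise in MOLM-14 with no call in MV4-11 accounted for 627, a rise in MOLM-14 with a fall in MV4-11 for 275, and a fall in both for 176. Among the 2723 negative differences, 1369 rose in MV4-11 with no call in MOLM-14, 638 fell in MOLM-14 with no call in MV4-11, and 344 fell in MOLM-14 and rose in MV4-11. A missing call in one line does not show that a gene stayed the same there. With 1 probe set per gene (the one with the highest mean signal), 3050 of 19775 genes differed (15.4%), 1421 positive (7.19%) and 1629 negative (8.24%), and the counts below are read against these shares. By the same measure 17.5% of genes responded in MOLM-14, of which 9.04% of all genes rose and 8.5% fell, and 24.3% in MV4-11, with 13.2% rising and 11.2% falling.

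**Figure D1:**
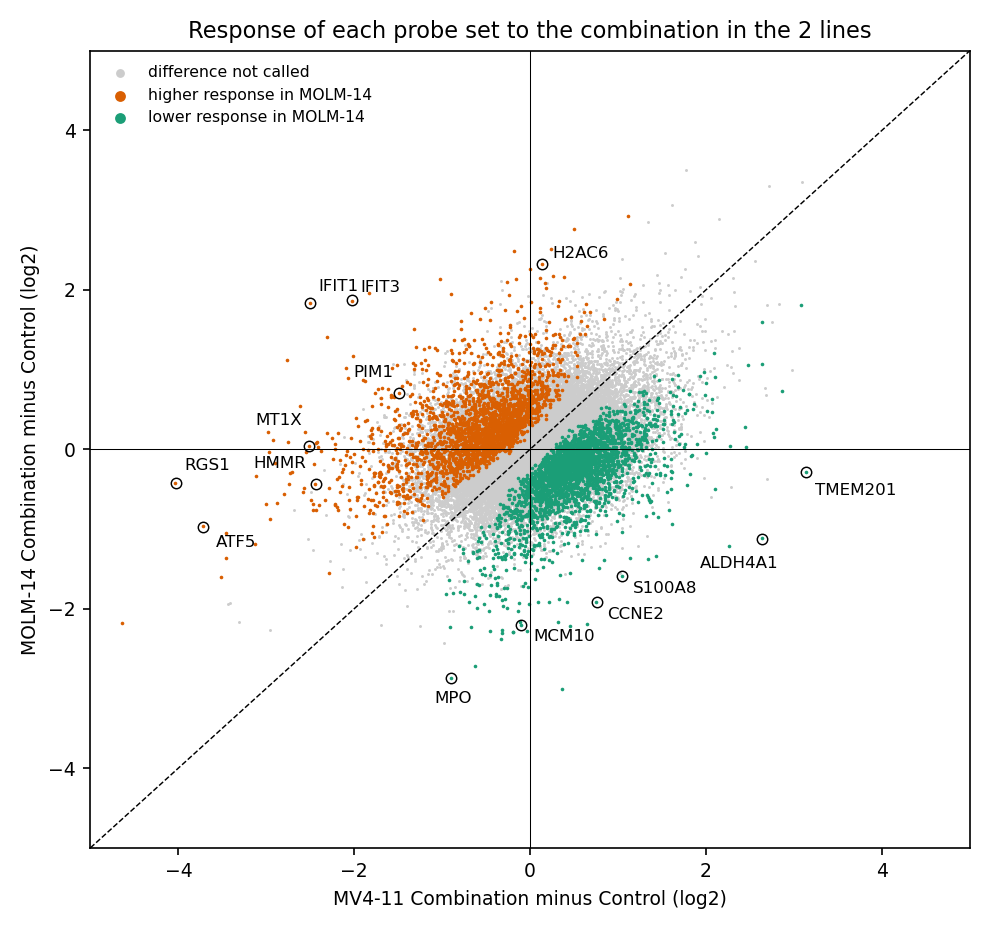
Response of each of 54613 probe sets to the combination (log2 Combination minus Control), in MV4-11 on the horizontal axis and in MOLM-14 on the vertical axis. Grey points had no call, orange points (2444) a higher and green points (2723) a lower response in MOLM-14 at an adjusted p under 0.05, the dashed line marks equal responses, and circled points are named genes.

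The 24 arrays had 2% trimmed means of 500.06 to 500.07, and arrays of one group correlated at 0.968 to 0.989. Median signals lay between 61.2 and 80.6 on MOLM-14 arrays and between 78.5 and 99.4 on MV4-11 arrays, and 30.3% of all signals were under 32. The ratio of 3' to 5' probe sets of ACTB was highest (1.375) on MV4-11 combination replicate 3. Some of the 11 measured myeloid markers were bright, as with CEBPA at 15394 to 24641, LYZ at 10939 to 18691 and FLT3 at 10511 to 15166 over the 12 arrays. MPO, of the same list, was dimmer, at 210.6 to 2606.6. Of the 11 myeloid markers 4 had a positive and 2 a negative difference (54.5%, against 15.4% of all genes). Of 31 measured markers of T and NK cells, B cells, erythroid cells and megakaryocytes, 0 differed in response by limma. Several of these were dim, with a mean signal not above 32 for 5 of 10 T and NK cell markers. The same held for 2 of 7 B cell, 2 of 6 erythroid and 1 of 8 megakaryocyte markers. Summed T and NK markers ranged over 1237 to 1459 in MOLM-14 combination cultures, against 1382 to 1638 in MOLM-14 DMSO cultures. In MV4-11 the ranges were 1179 to 1311 with the combination, against 1695 to 1831 in DMSO, where NKG7 alone gave 702.9 to 1305 over the 12 arrays.

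Genes of mitosis and the spindle mostly fell further in MV4-11 than in MOLM-14. Of 40 measured members, 31 had a positive difference and 0 a negative one, with a median of 0.89 against 0.00 over all genes. In MV4-11 39 fell and 0 rose (median -1.32), while in MOLM-14 25 fell and 0 rose (median -0.44). HMMR signals were 3593, 3343 and 3597 in the MOLM-14 combination cultures, against 4930.4, 4166 and 5247 in MOLM-14 DMSO cultures, and 1084, 959 and 1127 in the MV4-11 combination cultures, against 4983, 6213 and 6087 in MV4-11 DMSO cultures. HMMR encodes a hyaluronan receptor that also organises the spindle, and its combination and DMSO arrays did not overlap in either line. HMMR responses were -0.44 in MOLM-14 and -2.44 in MV4-11, a difference of 2.0 (SE 0.181, adjusted p = 2.46e-06). DLGAP5 read 2685, 2761 and 2957 on the MOLM-14 combination arrays, against 3135, 3066 and 3228 on the MOLM-14 DMSO arrays, and 587, 731 and 829 on the MV4-11 combination arrays, against 1930.3, 2329.9 and 2054 on the MV4-11 DMSO arrays. DLGAP5, a microtubule-binding protein of the spindle, had no overlap between combination and DMSO arrays in either line, with the wider gap in MV4-11. DLGAP5 responses were -0.17 in MOLM-14 and -1.57 in MV4-11, a difference of 1.40 (SE 0.144, adjusted p = 8.46e-06). Other members that passed had differences of 1.33 for CDK1, 1.35 for TOP2A, 1.33 for UBE2C, 1.32 for NDC80, 1.29 for PLK1, 1.21 for CCNB1, 1.11 for CCNB2 and 1.11 for BIRC5. CDK1 with its partners CCNB1 and CCNB2 drives entry into mitosis, PLK1 is a mitotic kinase, NDC80 links kinetochores to microtubules, TOP2A untangles sister chromatids, UBE2C marks mitotic cyclins for degradation, and BIRC5 belongs to the chromosomal passenger complex. The 9 members without a call included FOXM1 (-0.37), the transcription factor of this program, MAD2L1 (-0.25) and CCNA2 (0.22).

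Members of this list are known to be controlled through the cell cycle homology region (CHR), a short element near the start site that is often found with a CCAAT box. The letters TTTGAA or TTTAAA, on either strand and with overlaps counted, were sought in the 250 bases upstream of the first RefSeq promoter of each gene (GRCh38.p14). They were present in 22.1% of 27305 promoters and in 19 of the 26 mitosis genes with a positive difference and a promoter in the table (73.1%). The share over all 34 measured members with a promoter was 73.5%. CCAAT stood in 33.0% of all promoters and in 76.9% of these. A match is a description of the letters and not a tested site. The stretches below show the matches in capitals for HMMR, the member with the largest difference, and for CCNB2 as a mitotic cyclin, at chr5:163460562-163460631 on the plus strand and chr15:59105076-59105145 on the plus strand.
HMMR: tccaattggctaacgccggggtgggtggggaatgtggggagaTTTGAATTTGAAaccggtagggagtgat
CCNB2: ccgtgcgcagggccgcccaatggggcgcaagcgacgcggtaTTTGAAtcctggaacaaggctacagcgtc

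DNA replication genes mostly fell further in MOLM-14. Of 50 measured members, 33 had a negative and 2 a positive difference (median -0.99). In MOLM-14 43 fell and 1 rose (median -1.17), whereas in MV4-11 15 fell and 4 rose (median -0.27). MCM10 signals were 390.0, 271 and 322 in the MOLM-14 combination cultures, against 1583, 1528 and 1358 in MOLM-14 DMSO cultures, and 776, 809 and 807 in the MV4-11 combination cultures, against 917, 828 and 828 in MV4-11 DMSO cultures. MCM10, which helps start the replicative helicase, was lowest of the 4 groups in the MOLM-14 combination cultures, and its MV4-11 arrays lay close together without overlap. MCM10 responses were -2.20 in MOLM-14 and -0.10 in MV4-11, a difference of -2.10 (SE 0.207, adjusted p = 6.05e-06). Among members with a call, the differences were -2.05 for CLSPN, -1.94 for CDC6, -1.69 for MCM3, -1.44 for POLA2, -1.43 for GINS2, -1.42 for MCM7, -1.31 for MCM5, -1.26 for FEN1, -1.21 for PCNA, -1.21 for MCM6 and -1.12 for MCM2. CDC6 loads the MCM2 to MCM7 helicase onto origins, GINS2 belongs to the active helicase, POLA2 to the priming polymerase, PCNA is the sliding clamp, FEN1 trims Okazaki fragments, and CLSPN carries the replication checkpoint signal. The 2 exceptions were PRIM1 (0.75), the catalytic subunit of primase, and ORC4 (0.47), a subunit of the origin recognition complex, and ORC4 was at adjusted p = 0.183 by limma with centred arrays. PRIM1 read 4696, 4499.9 and 4553 on the MOLM-14 combination arrays, against 6385, 6331 and 5796 on the MOLM-14 DMSO arrays, and 2784, 3147 and 3197 on the MV4-11 combination arrays, against 6725, 6768 and 7098 on the MV4-11 DMSO arrays. PRIM1 was lower with the combination than in DMSO on every array of both lines, with the wider gap in MV4-11. PRIM1 responses were -0.43 in MOLM-14 and -1.18 in MV4-11, a difference of 0.75 (SE 0.105, adjusted p = 0.000147).

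Regulators of the step into S phase followed in part, with 11 of 25 members negative and 4 positive (median -0.11). CCNE2 signals were 753, 441 and 517 in the MOLM-14 combination cultures, against 2247, 2177 and 1898 in MOLM-14 DMSO cultures, and 983, 1085 and 1144 in the MV4-11 combination cultures, against 624, 592 and 686 in MV4-11 DMSO cultures. CCNE2 and CCNE1 encode E cyclins, the partners of CDK2, and the CCNE2 arrays did not overlap within either line. CCNE2 responses were -1.92 in MOLM-14 and 0.76 in MV4-11, a difference of -2.67 (SE 0.209, adjusted p = 6.57e-07). CDC25A read 109, 83.6 and 113 on the MOLM-14 combination arrays, against 453, 419 and 492 on the MOLM-14 DMSO arrays, and 197, 321 and 344 on the MV4-11 combination arrays, against 255, 240.1 and 185 on the MV4-11 DMSO arrays. CDC25A, the phosphatase that activates CDK2, was lowest of the 4 groups on the MOLM-14 combination arrays, and the MV4-11 groups overlapped. It was also low with SAHA alone in MOLM-14, at 202, 117 and 138, a response of -1.61 that passed the test. CDC25A responses were -2.17 in MOLM-14 and 0.31 in MV4-11, a difference of -2.48 (SE 0.356, adjusted p = 0.000178). CCNE1 also fell in MOLM-14 and rose in MV4-11, at -1.49 in MOLM-14 and 0.79 in MV4-11. The other of its 2 probe sets had a difference in the opposite direction, at 0.88, with no call. The E2F transcription factors E2F2, E2F1 and E2F7 had differences of -1.54, -1.25 and -0.95. The 4 positive members were inhibitors of cyclin-dependent kinases: CDKN1C (2.01), CDKN2D (1.46), CDKN1A (0.62) and CDKN1B (0.58). With centred arrays the positive count was 2. CDKN1A rose in MOLM-14 (0.52) and was at -0.10 in MV4-11, and CDKN1C fell in MV4-11 (-1.53) and was at 0.48 in MOLM-14. The MOLM-14 groups of CDKN1C overlapped, and 1 of its 5 probe sets was called, with the lowest difference at 0.0. For CDKN2D 1 of 2 probe sets was called, and the other was at 0.14. CDK6, CCND2 and CCND3, which act earlier in G1, had differences of 0.02, 0.02 and 0.06 and no call.

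E2F factors bind upstream of many of these genes. The letters TTTCGCGC, TTTGGCGC or TTTCCCGC, on either strand, were found in 2.38% of the 27305 promoters. They were present in 9 of the 29 replication genes with a negative difference and a promoter in the table (31%), and in 5 of 9 such G1/S regulators (55.6%). Over all measured members with a promoter the shares were 12 of 44 for replication (27.3%) and 5 of 19 for G1/S (26.3%). By contrast the CHR letters were in 0 of the same 29 replication genes, and the E2F letters in 1 of the 26 mitosis genes (3.85%). The stretches below give the match in capitals for POLA2 and GINS2, as replication genes, and for CDC25A, at chr11:65261882-65261941 on the plus strand, chr16:85688955-85689024 on the minus strand and chr3:48188428-48188497 on the minus strand.
POLA2: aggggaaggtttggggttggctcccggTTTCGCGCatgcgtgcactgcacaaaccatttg
GINS2: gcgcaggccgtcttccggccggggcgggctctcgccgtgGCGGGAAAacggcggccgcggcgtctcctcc
CDC25A: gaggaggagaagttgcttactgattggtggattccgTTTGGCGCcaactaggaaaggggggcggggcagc

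Enzymes that supply nucleotides, and factors that build ribosomes, also responded lower in MOLM-14. In the nucleotide list 12 of 21 members were negative and 0 positive (median -0.54). In MOLM-14 15 fell and 0 rose (median -0.47), whereas in MV4-11 6 rose and 7 fell (median 0.07). PFAS signals were 1206, 1618 and 1562 in the MOLM-14 combination cultures, against 2480.1, 2272 and 2112 in MOLM-14 DMSO cultures, and 2812, 3148 and 2993 in the MV4-11 combination cultures, against 1193, 1248 and 1044 in MV4-11 DMSO cultures. PFAS, an enzyme of purine synthesis, moved in opposite directions in the lines with no overlap of arrays in either. PFAS responses were -0.66 in MOLM-14 and 1.36 in MV4-11, a difference of -2.02 (SE 0.17, adjusted p = 1.22e-06). CAD, which starts pyrimidine synthesis, fell by 1.03 in MOLM-14 and rose by 0.43 in MV4-11. CTPS1, DHODH and UMPS of the same pathway had differences of -1.41, -1.12 and -0.93. Of the ribosome list 22 of 27 members were negative and 0 positive (median -0.75). Here the movement was mostly in MV4-11, where 18 rose and 0 fell (median 0.51), against 0 that rose and 10 that fell in MOLM-14 (median -0.24). POLR1A read 679, 613 and 607 on the MOLM-14 combination arrays, against 1081, 725 and 744 on the MOLM-14 DMSO arrays, and 1211, 1184 and 1413 on the MV4-11 combination arrays, against 554, 540.1 and 574 on the MV4-11 DMSO arrays. POLR1A is the largest subunit of RNA polymerase I, which makes ribosomal RNA, and its highest arrays were the MV4-11 combination ones. POLR1A responses were -0.40 in MOLM-14 and 1.19 in MV4-11, a difference of -1.59 (SE 0.234, adjusted p = 0.00022). Differences of -1.14 for NOP16, -1.12 for RRP12, -1.0 for RRP1B, -0.99 for NOLC1, -0.90 for HEATR1, -0.72 for PES1 and -0.64 for NCL were among the other calls, whereas FBL (-0.07) and NPM1 (0.15) had none. In homologous recombination and the Fanconi pathway 5 of 23 were negative and 1 positive (median -0.42), with RAD54L at -1.37, EXO1 at -1.21 and MND1 at 0.67. Without MOLM-14 combination replicate 1 the negative count was 8.

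**Figure D2:**
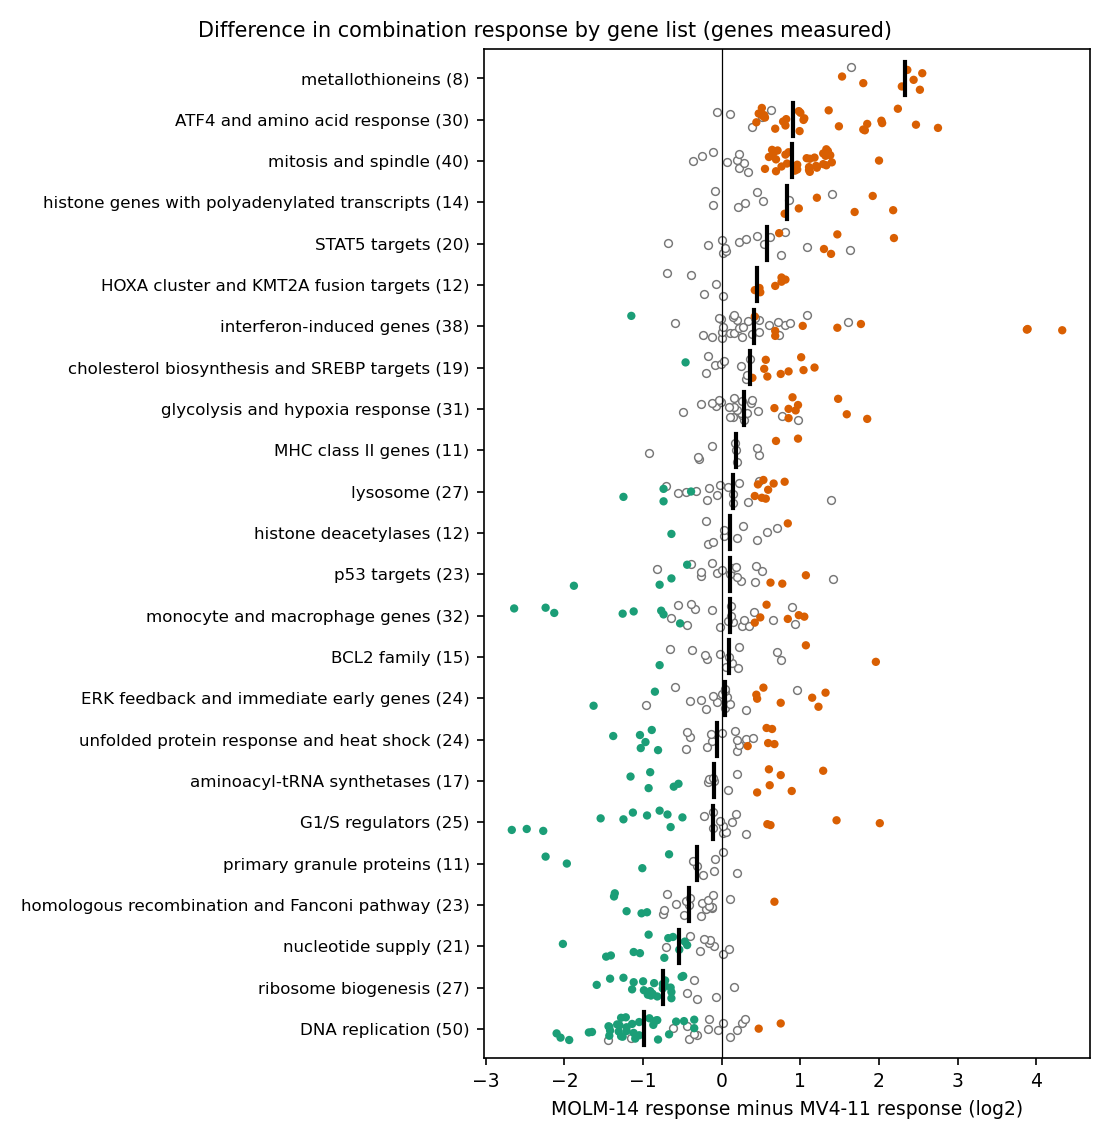
Difference in response (MOLM-14 minus MV4-11, log2) of each measured member of 24 gene lists, ordered by their medians. Filled points had an adjusted p under 0.05 (orange higher, green lower in MOLM-14), open points had no call, and black bars are the list medians, which ran between 2.32 for the metallothioneins and -0.99 for DNA replication.

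Genes of the amino acid response fell in MV4-11 and less in MOLM-14. ATF4 is a transcription factor made when amino acids or the folding of proteins run short, and it drives genes of amino acid import and synthesis. Of 30 members 25 had a positive and 0 a negative difference (median 0.90). In MV4-11 all 30 measured members fell (median -1.45), against 15 that fell and 1 that rose in MOLM-14 (median -0.42). ATF5 signals were 447, 343 and 309.9 in the MOLM-14 combination cultures, against 789, 802 and 562 in MOLM-14 DMSO cultures, and 325, 283 and 388 in the MV4-11 combination cultures, against 5831, 3641 and 3832 in MV4-11 DMSO cultures. ATF5, itself a factor of the same family, was far brighter in MV4-11 DMSO cultures than in any others, and the combination arrays of the lines overlapped. In DMSO its level in MOLM-14 was -2.61 relative to MV4-11 (log2). ATF5 responses were -0.97 in MOLM-14 and -3.72 in MV4-11, a difference of 2.75 (SE 0.269, adjusted p = 5.24e-06). TRIB3 read 499, 553 and 414 on the MOLM-14 combination arrays, against 704, 632 and 523 on the MOLM-14 DMSO arrays, and 384, 376 and 468 on the MV4-11 combination arrays, against 3574, 3618 and 3376 on the MV4-11 DMSO arrays. TRIB3, a pseudokinase induced by ATF4, had the same layout, with the MOLM-14 groups overlapping. TRIB3 responses were -0.34 in MOLM-14 and -3.11 in MV4-11, a difference of 2.77 (SE 0.181, adjusted p = 1.48e-07). A further TRIB3 probe set had a difference of 2.24. CHAC1, which degrades glutathione, fell in both lines, with responses of -2.18 in MOLM-14 and -4.64 in MV4-11, and 1 MOLM-14 and 2 MV4-11 combination arrays were at the floor of 32, which limits the size of its difference of 2.47 (SE 0.567, adjusted p = 0.00847).

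Among the other members with calls, the differences were 2.04 for DDIT3, 2.03 for NUPR1, 1.85 for CTH, 1.82 for ASNS, 1.80 for ATF3, 1.36 for SLC7A5, 1.05 for PSAT1, 0.82 for PHGDH, 0.98 for SLC7A11 and 0.68 for ATF4. DDIT3 and ATF3 are stress transcription factors, ASNS makes asparagine, PSAT1 and PHGDH make serine, CTH makes cysteine, and SLC7A5 and SLC7A11 import amino acids. ASNS fell by 1.91 in MV4-11 and was at -0.09 in MOLM-14. Charging enzymes for transfer RNA were split, with 6 of 17 positive and 5 negative (median -0.10). WARS1 signals were 3688, 3397 and 3634 in the MOLM-14 combination cultures, against 2361, 2232 and 2281 in MOLM-14 DMSO cultures, and 2586, 2495 and 2735 in the MV4-11 combination cultures, against 4022, 4054 and 4217 in MV4-11 DMSO cultures. WARS1, the tryptophan enzyme, moved in opposite directions with no overlap within either line. WARS1 responses were 0.64 in MOLM-14 and -0.65 in MV4-11, a difference of 1.29 (SE 0.0955, adjusted p = 3.67e-07). RARS1 read 3916, 3602 and 3131 on the MOLM-14 combination arrays, against 2958, 2696 and 2602 on the MOLM-14 DMSO arrays, and 4618, 5106 and 4478 on the MV4-11 combination arrays, against 1834, 1631 and 1473 on the MV4-11 DMSO arrays. RARS1, the arginine enzyme, was brightest on the MV4-11 combination arrays. RARS1 responses were 0.36 in MOLM-14 and 1.53 in MV4-11, a difference of -1.16 (SE 0.195, adjusted p = 0.000716). CARS1 (0.89), SARS1 (0.75), GARS1 (0.61), YARS1 (0.60) and AARS1 (0.45) were on the positive side, and FARSA (-0.93), VARS1 (-0.91), FARSB (-0.61) and HARS1 (-0.55) on the negative side. With the arrays centred on their medians the positive count was 2. The letters TGATGNAA, the core of the amino acid response element, were found on either strand in 3.19% of all promoters and in 3 of 20 ATF4-list genes with a positive difference (15%), against 3 of 25 measured. The matches of ASNS and CHAC1 are shown in capitals, at chr7:97872449-97872508 on the minus strand and chr15:40953241-40953300 on the plus strand.
ASNS: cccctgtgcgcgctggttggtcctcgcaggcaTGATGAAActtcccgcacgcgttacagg
CHAC1: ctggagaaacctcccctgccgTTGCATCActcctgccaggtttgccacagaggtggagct

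The largest positive differences of named probe sets belonged to IFIT1, IFIT3 and IFIT2, proteins with tetratricopeptide repeats that bind foreign RNA and are induced by interferon. IFIT1 signals were 463, 502 and 486 in the MOLM-14 combination cultures, against 129, 96.9 and 199 in MOLM-14 DMSO cultures, and 99.7, 149 and 144 in the MV4-11 combination cultures, against 718, 915 and 589.5 in MV4-11 DMSO cultures. In MOLM-14 every combination array was above every DMSO array, and in MV4-11 every one was below. IFIT1 responses were 1.83 in MOLM-14 and -2.50 in MV4-11, a difference of 4.33 (SE 0.462, adjusted p = 1.17e-05). IFIT3 read 601, 547 and 583 on the MOLM-14 combination arrays, against 119, 137 and 242 on the MOLM-14 DMSO arrays, and 206, 215 and 242 on the MV4-11 combination arrays, against 898, 1202 and 668 on the MV4-11 DMSO arrays. IFIT3 arrays had the same order, without overlap in either line. IFIT3 responses were 1.87 in MOLM-14 and -2.02 in MV4-11, a difference of 3.89 (SE 0.323, adjusted p = 1.06e-06). IFIT2 stood at 1.13 in MOLM-14 and -2.76 in MV4-11, a difference of 3.88 (SE 0.355, adjusted p = 2.55e-06). In DMSO these genes were lower in MOLM-14, with levels relative to MV4-11 of -2.43 for IFIT1, -2.50 for IFIT3 and -2.62 for IFIT2 (log2). In the wider list 9 of 38 interferon-induced genes were positive and 1 negative (median 0.40), and 12 rose and 6 fell in MOLM-14, against 5 and 12 in MV4-11. With a floor of 1 in place of 32 the positive count was 5. ISG20 (1.77), IFITM1 (1.47) and IRF7 (1.03) were on the positive side and TRIM22 (-1.15) was the negative member. BST2 and IFI6 rose in both lines, with differences of 0.00 and 0.48 and no call.

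Interferon-induced genes are switched on through the interferon response element, bound by IRF and STAT proteins. Its core, 2 TTTC blocks separated by any 2 bases, was sought on either strand and found in 3.07% of all promoters, in 16 of 31 measured interferon-list genes (51.6%), and in 6 of the 7 with a positive difference (85.7%). IFIT1 and IFIT3 have 2 matches each, shown in capitals, at chr10:89392493-89392542 on the plus strand and chr10:89327827-89327896 on the plus strand.
IFIT1: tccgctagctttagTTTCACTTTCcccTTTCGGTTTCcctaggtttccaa
IFIT3: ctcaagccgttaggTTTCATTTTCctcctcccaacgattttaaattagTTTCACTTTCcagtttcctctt

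Metallothioneins, small cysteine-rich proteins that bind zinc and copper, had the highest median difference of the lists. Of 8 measured, 7 were positive and 0 negative (median 2.32). In MV4-11 7 fell (median -2.33), and in MOLM-14 1 fell and 0 rose (median 0.00). MT1X signals were 5901, 5544 and 5814 in the MOLM-14 combination cultures, against 5950.2, 5962 and 4907 in MOLM-14 DMSO cultures, and 3609, 3448 and 3919.8 in the MV4-11 combination cultures, against 21413, 20776 and 20328 in MV4-11 DMSO cultures. The MV4-11 DMSO arrays were the brightest, the MV4-11 combination arrays the dimmest, and the MOLM-14 groups overlapped between them. MT1X responses were 0.04 in MOLM-14 and -2.51 in MV4-11, a difference of 2.55 (SE 0.197, adjusted p = 5.82e-07). MT2A (2.36), MT1F (2.29), MT1G (1.80) and MT1M (1.53) were also positive, and MT3 (1.64) had no call. Probes of MT1 genes are nearly identical, and the sets for MT1X, MT1E, MT1H and MT1HL1 are of the kind that can bind several family members, so the genes cannot be told apart by these arrays. In DMSO the MT1X level in MOLM-14 was -1.90 relative to MV4-11. The metal response element is bound by MTF1, the zinc sensor of these genes, and its core was searched after the values had been seen, as TGCACNC or TGCGCNC. On either strand it occurred in 24.7% of promoters, and the MT2A promoter held 7 matches. Of these, 6 are in capitals below, at chr16:56608404-56608583 on the plus strand.
MT2A: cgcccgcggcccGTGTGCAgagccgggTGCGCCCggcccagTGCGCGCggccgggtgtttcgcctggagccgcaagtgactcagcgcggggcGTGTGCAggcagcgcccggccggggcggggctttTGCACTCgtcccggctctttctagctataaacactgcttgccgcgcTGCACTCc

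**Figure D3:**
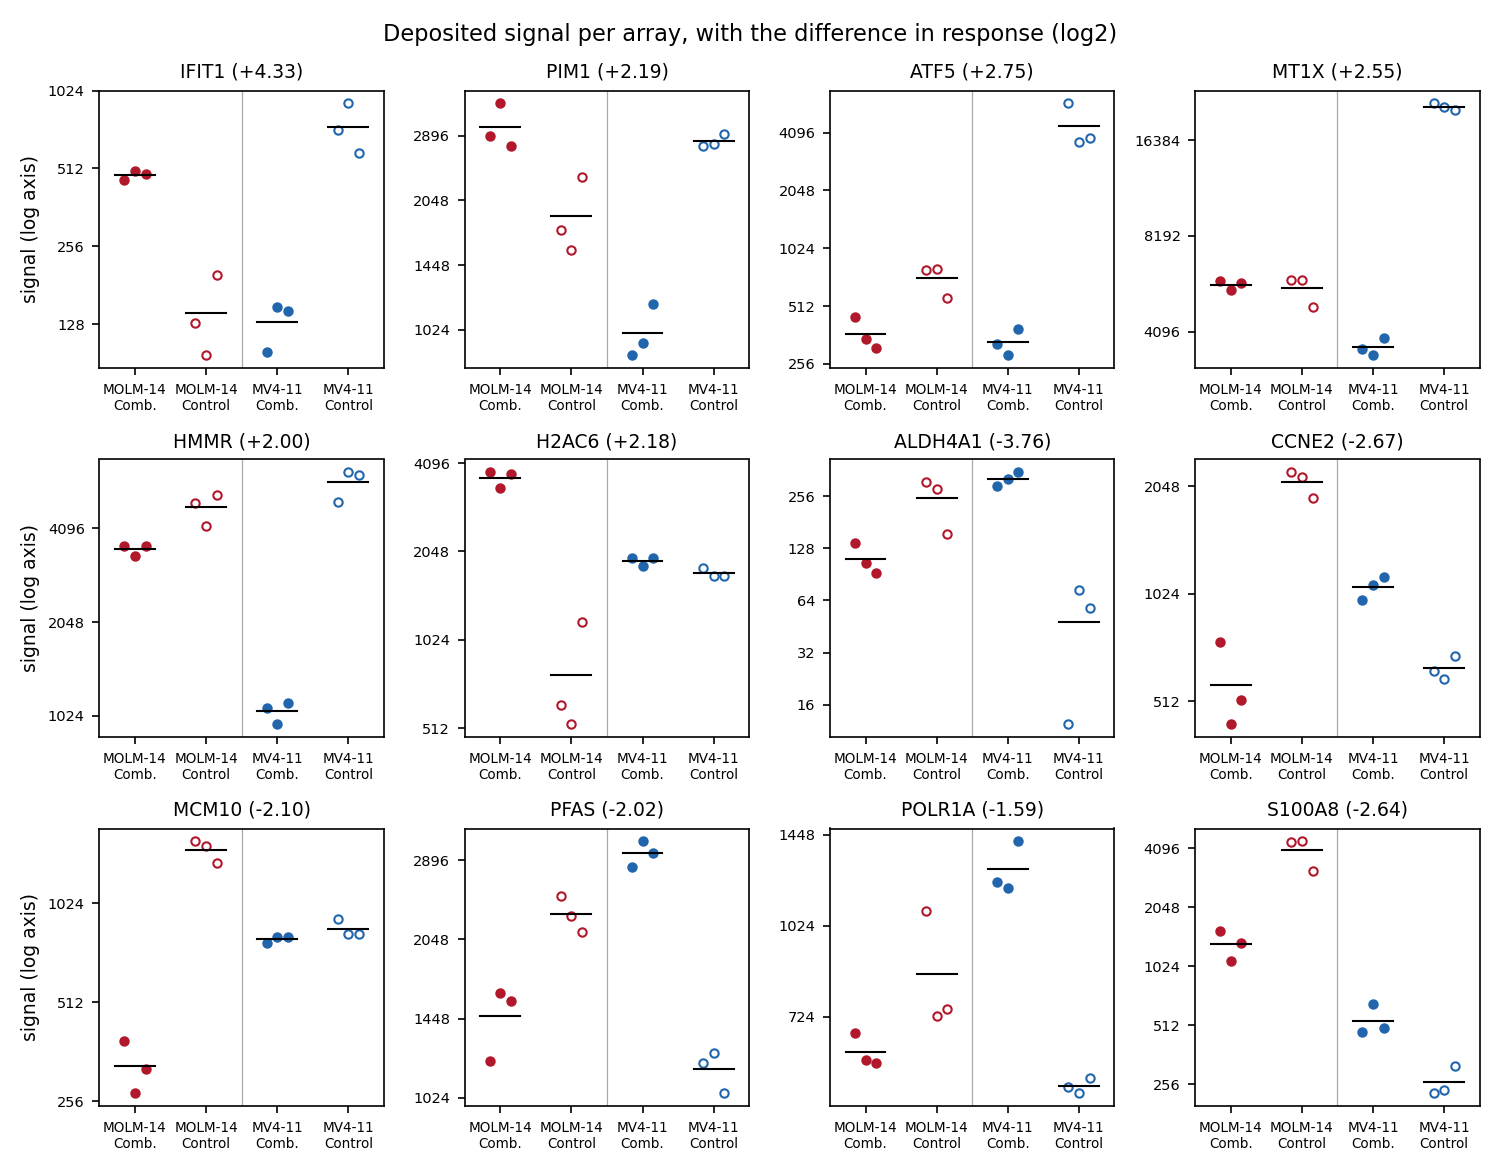
Deposited signal of 12 named probe sets on each array (log axis), with MOLM-14 in red and MV4-11 in blue, combination cultures as filled and DMSO cultures as open circles, and bars at the arithmetic mean of 3. The number beside each gene is its difference in response (log2), for example 4.33 for IFIT1 and -2.64 for S100A8.

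Of 20 targets of STAT5, which acts downstream of FLT3, 5 were positive and 0 negative (median 0.58). FLT3 activity was not measured on these arrays. PIM1 signals were 2894, 3449.5 and 2739 in the MOLM-14 combination cultures, against 1749, 1574 and 2318 in MOLM-14 DMSO cultures, and 893, 955 and 1174 in the MV4-11 combination cultures, against 2747, 2767 and 2919.9 in MV4-11 DMSO cultures. PIM1, a survival kinase, was above its DMSO arrays in MOLM-14 and below them in MV4-11, without overlap. PIM1 responses were 0.70 in MOLM-14 and -1.49 in MV4-11, a difference of 2.19 (SE 0.19, adjusted p = 1.56e-06). SOCS1 read 922, 834 and 901 on the MOLM-14 combination arrays, against 949, 1289.5 and 1059.9 on the MOLM-14 DMSO arrays, and 346, 376 and 341 on the MV4-11 combination arrays, against 1092, 1319.9 and 1220.0 on the MV4-11 DMSO arrays. SOCS1, a feedback inhibitor of cytokine receptors, was lower with the combination on every array of both lines, and its fall passed the test in MV4-11 alone. Of its 4 probe sets 2 had a called difference, and the lowest value among them was -0.17. SOCS1 responses were -0.30 in MOLM-14 and -1.77 in MV4-11, a difference of 1.47 (SE 0.183, adjusted p = 5.14e-05). CISH and SOCS2, further feedback inhibitors, had differences of 1.30 and 0.73, and the repressor BCL6 1.39. MYC (0.00), MCL1 (0.22) and PIM2 (0.62) had no call. Among feedback and immediate early genes of the ERK pathway 7 of 24 were positive and 2 negative (median 0.04), a median whose sign changed with the processing. DUSP6, the phosphatase of ERK1/2, rose in MOLM-14 (1.27) and was at 0.04 in MV4-11, and PHLDA1 did likewise (1.32 and 0.00). EGR1, an immediate early transcription factor, fell in MOLM-14 (-1.48) and was at 0.15 in MV4-11. The positive count of this list was 3 with centred arrays and 4 with a floor of 1.

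FLT3 itself, the target of ABT-869, moved by a small amount in each line. FLT3 signals were 12732, 13032 and 12673 in the MOLM-14 combination cultures, against 10511, 11199 and 10740.0 in MOLM-14 DMSO cultures, and 12655, 13226 and 12123 in the MV4-11 combination cultures, against 15166, 14953 and 14875 in MV4-11 DMSO cultures. It was slightly brighter with the combination in MOLM-14 and slightly dimmer in MV4-11, without overlap in either line, and the combination arrays of the lines overlapped. FLT3 responses were 0.24 in MOLM-14 and -0.24 in MV4-11, a difference of 0.49 (SE 0.0733, adjusted p = 0.000261). With centred arrays the FLT3 difference had an adjusted p of 0.116. PTP4A3, a phosphatase that the study examined in these cells, has 2 probe sets. PTP4A3 read 1061, 929 and 874 on the MOLM-14 combination arrays, against 1913, 1790.1 and 1435 on the MOLM-14 DMSO arrays, and 804, 887 and 964 on the MV4-11 combination arrays, against 3057, 2622 and 2682 on the MV4-11 DMSO arrays. Both lines were lower with the combination on every array, and the combination arrays of the lines overlapped. PTP4A3 responses were -0.84 in MOLM-14 and -1.66 in MV4-11, a difference of 0.82 (SE 0.168, adjusted p = 0.00367). The further probe set fell in both lines, at -1.09 in MOLM-14 and -1.54 in MV4-11, a difference of 0.44 (SE 0.267, adjusted p = 0.421) and no call. This further one is the PTP4A3 probe set in the paper's list of genes changed by the combination in both lines. With centred arrays the first probe set was at an adjusted p of 0.0532. BCL2A1 signals were 652, 566 and 616 in the MOLM-14 combination cultures, against 348, 236 and 394 in MOLM-14 DMSO cultures, and 230.5, 242 and 208 in the MV4-11 combination cultures, against 418, 511 and 452 in MV4-11 DMSO cultures. BCL2A1, an anti-apoptotic member of the BCL2 family, moved in opposite directions without overlap in either line. BCL2A1 responses were 0.94 in MOLM-14 and -1.02 in MV4-11, a difference of 1.96 (SE 0.225, adjusted p = 2.43e-05). In that family 2 of 15 were positive and 1 negative, with PMAIP1 (NOXA, which antagonises MCL1) at 1.07 and the pore-forming BAX at -0.79. The called share was 20.0%, near the 15.4% of all genes. Without MV4-11 combination replicate 3 the positive count was 4. BCL2, BCL2L11 and BAK1 had differences of 0.13, -0.19 and 0.06 and no call.

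Of 14 histone genes known to give polyadenylated transcripts, 6 were positive and 0 negative (median 0.82), with 6 rising and 1 falling in MOLM-14, against 1 rising and 4 falling in MV4-11. H2AC6 signals were 3814, 3354 and 3747 in the MOLM-14 combination cultures, against 616, 527 and 1179.5 in MOLM-14 DMSO cultures, and 1942, 1824 and 1945 in the MV4-11 combination cultures, against 1802, 1692 and 1686 in MV4-11 DMSO cultures. H2AC6, a gene of the H2A family, was brightest on the MOLM-14 combination arrays and dimmest on the MOLM-14 DMSO arrays, while the MV4-11 arrays of both treatments lay close together without overlap. H2AC6 responses were 2.32 in MOLM-14 and 0.14 in MV4-11, a difference of 2.18 (SE 0.368, adjusted p = 0.000771). H2BC5 (1.92), H1-2 (1.69), H2BC4 (1.21), H2AJ (0.98) and H1-10 (0.80) were the other calls, and H2AZ1 (-0.11) and H2AX (0.21) had none. Histone genes share sequence, so members of the H2A and H2B clusters may not be separated. Among the histone deacetylases, which SAHA inhibits, 1 of 12 was positive (HDAC9, 0.84) and 1 negative (HDAC4, -0.64), a share of 16.7% that is near the 15.4% of all genes. Another of the 3 HDAC4 probe sets was at 1.60 with no call, and the negative count was 0 with a floor of 1 or without any 1 of 5 single arrays (MV4-11 Control replicates 2 and 3, MV4-11 Combination replicate 2, MOLM-14 Control replicate 2 and MOLM-14 Combination replicate 2). Without MV4-11 Combination replicate 3 the positive count was 3. HDAC1, HDAC2 and HDAC3 had differences of -0.17, 0.19 and 0.03 and no call.

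Genes of myeloid cells differed in both directions. Of 32 monocyte and macrophage genes 6 were positive and 8 negative (median 0.10, of changing sign with the processing). The positive count was 2 with centred arrays and 3 with a floor of 1. Of 11 primary granule proteins 0 were positive and 4 negative (median -0.32). S100A8 signals were 1541, 1086 and 1337 in the MOLM-14 combination cultures, against 4413, 4443 and 3112 in MOLM-14 DMSO cultures, and 469.7, 653 and 497 in the MV4-11 combination cultures, against 229, 239 and 315 in MV4-11 DMSO cultures. S100A8, the calcium-binding partner of S100A9 in monocytes and neutrophils, was brighter in MOLM-14 than in MV4-11 under both conditions, and the lines moved in opposite directions without overlap. S100A8 responses were -1.59 in MOLM-14 and 1.05 in MV4-11, a difference of -2.64 (SE 0.315, adjusted p = 3.46e-05). The other of the 2 S100A8 probe sets had a difference of -0.64 and no call. S100A9 fell by 2.28 in MOLM-14 and was at -0.04 in MV4-11. MPO read 519.6, 292 and 211 on the MOLM-14 combination arrays, against 2431, 2607 and 1971 on the MOLM-14 DMSO arrays, and 613, 723 and 946 on the MV4-11 combination arrays, against 1279, 1409 and 1522 on the MV4-11 DMSO arrays. MPO, the peroxidase of primary granules, was lower with the combination on every array of both lines. MPO responses were -2.87 in MOLM-14 and -0.90 in MV4-11, a difference of -1.97 (SE 0.413, adjusted p = 0.00442). PRTN3 and ELANE, serine proteases of the same granules, had differences of -2.24 and -1.01. MNDA and MPEG1, which mark maturing monocytes, were at 1.81 and 0.74 in MOLM-14 and 3.08 and 2.87 in MV4-11, differences of -1.26 and -2.13. LGALS3 (0.98), FCGR2A (0.84) and ITGAM (0.49) were positive, CSF1R (-0.53) and LYZ (-0.74) negative, and CD14 (0.26) and CD163 (0.35) had no call. The other of the 2 LGALS3 probe sets went the opposite way, at -0.62, with no call.

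Several genes of lipid and sugar metabolism fell further in MV4-11. Of 19 genes of cholesterol synthesis, 9 were positive and 1 negative (median 0.36), with 14 falling in MOLM-14 and 15 in MV4-11, and 4 were positive with centred arrays and 5 with a floor of 1. INSIG1 signals were 10799, 9060.0 and 9427 in the MOLM-14 combination cultures, against 12232, 12094 and 12656 in MOLM-14 DMSO cultures, and 4405, 4619.6 and 4393 in the MV4-11 combination cultures, against 12346, 11878 and 10869.7 in MV4-11 DMSO cultures. INSIG1, the sterol sensor of the pathway, was brighter on every MOLM-14 than on every MV4-11 combination array, whereas the DMSO arrays of the lines overlapped. INSIG1 responses were -0.34 in MOLM-14 and -1.39 in MV4-11, a difference of 1.04 (SE 0.107, adjusted p = 8.22e-06). MSMO1 (1.18), STARD4 (1.01), IDI1 (0.85) and HMGCS1 (0.75) had positive differences, with HMGCS1 at -1.23 in MOLM-14 and -1.98 in MV4-11. Of 31 glycolysis and hypoxia genes 9 were positive and 0 negative (median 0.28), with 17 falling and 3 rising in MV4-11. ALDOC read 6259, 5844 and 6054 on the MOLM-14 combination arrays, against 7746, 7974 and 6519.6 on the MOLM-14 DMSO arrays, and 2410.0, 2579 and 3402 on the MV4-11 combination arrays, against 12119, 12469 and 11899.6 on the MV4-11 DMSO arrays. ALDOC, a form of aldolase, was dimmest on the MV4-11 combination arrays. ALDOC responses were -0.29 in MOLM-14 and -2.14 in MV4-11, a difference of 1.85 (SE 0.211, adjusted p = 2.23e-05). ENO2 (1.59), the glucose transporter SLC2A3 (1.48), PFKFB4 (0.97) and VEGFA (0.90) followed, and LDHA (0.19), PGK1 (0.26) and SLC2A1 (0.38) had no call.

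Several of the largest differences lay outside the lists. RGS1 signals were 1528, 633 and 1212 in the MOLM-14 combination cultures, against 1623, 1411 and 1233 in MOLM-14 DMSO cultures, and 191, 171.4 and 245 in the MV4-11 combination cultures, against 3495, 3137 and 3218 in MV4-11 DMSO cultures. RGS1, which shuts off G protein signals, was brightest in MV4-11 DMSO cultures and dimmest in MV4-11 combination cultures, and the MOLM-14 groups overlapped between them. RGS1 responses were -0.42 in MOLM-14 and -4.03 in MV4-11, a difference of 3.61 (SE 0.521, adjusted p = 0.000188). TM6SF1 read 544, 576 and 704 on the MOLM-14 combination arrays, against 100.2, 111 and 231 on the MOLM-14 DMSO arrays, and 179, 169 and 119 on the MV4-11 combination arrays, against 293, 299 and 349.5 on the MV4-11 DMSO arrays. TM6SF1, a membrane protein, moved in opposite directions without overlap. TM6SF1 responses were 2.14 in MOLM-14 and -1.03 in MV4-11, a difference of 3.17 (SE 0.348, adjusted p = 1.55e-05). ALDH4A1 signals were 137, 106 and 91.7 in the MOLM-14 combination cultures, against 311, 282 and 155 in MOLM-14 DMSO cultures, and 295, 320.3 and 353 in the MV4-11 combination cultures, against 12.3, 73.6 and 58.3 in MV4-11 DMSO cultures. ALDH4A1, a mitochondrial enzyme of proline breakdown, had the largest negative difference of the named probe sets, and 1 MV4-11 DMSO array was under 32. The other of the 2 ALDH4A1 probe sets had a difference of -0.2 and no call. ALDH4A1 responses were -1.12 in MOLM-14 and 2.64 in MV4-11, a difference of -3.76 (SE 0.373, adjusted p = 6.12e-06). TMEM201 read 234, 148 and 393 on the MOLM-14 combination arrays, against 305, 399.5 and 205 on the MOLM-14 DMSO arrays, and 479, 403 and 419 on the MV4-11 combination arrays, against 61.4, 45.6 and 42.1 on the MV4-11 DMSO arrays. TMEM201, a protein of the inner nuclear membrane, was dim in MV4-11 DMSO cultures and overlapped between the MOLM-14 groups. TMEM201 responses were -0.29 in MOLM-14 and 3.14 in MV4-11, a difference of -3.43 (SE 0.591, adjusted p = 0.000909). SLC19A1, the reduced folate carrier, had responses of -1.21 in MOLM-14 and 2.26 in MV4-11, of which the MV4-11 one alone was called. The SLC19A1 difference was -3.47 (SE 0.733, adjusted p = 0.00462). HELLS, a chromatin remodeler, fell in MOLM-14 (-1.92) and was at 0.42 in MV4-11, and FOXRED2, an oxidoreductase of the endoplasmic reticulum, did likewise (-2.21 and 0.46), with 1 MOLM-14 combination array under 32.

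The same fit gives the difference between the lines for each drug alone, against the same DMSO arrays, so that the values stand side by side and are not independent. ABT-869 alone gave 713 probe sets (1.31%) with a different response and SAHA alone 1666 (3.05%), or 2.22% and 5.22% of genes. Positive and negative calls were 1.24% and 0.981% of genes with ABT-869, and 2.47% and 2.75% with SAHA. Of the 40 mitosis genes, 0 were positive and 1 negative with ABT-869, and 1 positive and 4 negative with SAHA (medians 0.13 and 0.08, against 0.89 with the combination). DLGAP5 differed by 1.40 with the combination, 0.23 with SAHA and 0.17 with ABT-869. The ribosome list had 0 and 5 negative members with ABT-869 and SAHA, against 22 with the combination. Its medians were -0.06 and -0.34, against -0.75. The cholesterol list had 0 and 2 positive members, against 9, with medians of -0.04 and 0.22, against 0.36. Fewer calls with a single drug therefore do not show that a difference was absent there. INSIG1 fell in both lines with ABT-869 alone, at -0.46 in MOLM-14 and -0.43 in MV4-11, a difference of -0.03. H2AC6 rose with SAHA alone in both lines, by 1.55 in MOLM-14 and 1.46 in MV4-11, a difference of 0.10, whereas with the combination it was at 2.32 and 0.14. The difference between these differences was not tested.

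For other lists more of the members were already called with a single drug. Of the replication genes 27 of 50 were negative with SAHA (median -0.74) and 1 with ABT-869 (median -0.12), and MCM10 differed by -1.44 with SAHA and -0.13 with ABT-869. Of the ATF4 list 18 of 30 were positive with SAHA (median 0.88) and 13 with ABT-869 (median 0.65). The metallothioneins had 7 of 8 positive with either drug, with medians of 1.31 for SAHA and 1.79 for ABT-869, and MT1X differed by 1.27 and 2.01. IFIT3 differed by 3.42 with SAHA, where it rose in MOLM-14 (1.78) and fell in MV4-11 (-1.65). With ABT-869 it fell in MV4-11 (-2.74) and was at -0.10 in MOLM-14. WARS1 differed by 1.49 and 1.34. PIM1 fell with ABT-869 in both lines, at -1.53 in MOLM-14 and -2.37 in MV4-11, and with SAHA it rose in MOLM-14 (1.25) and was at 0.39 in MV4-11. For each of PIM1, IFIT3, WARS1 and MT1X the DMSO level in MOLM-14 was below that in MV4-11, at -0.60, -2.50, -0.84 and -1.90 (log2).

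**Figure D4:**
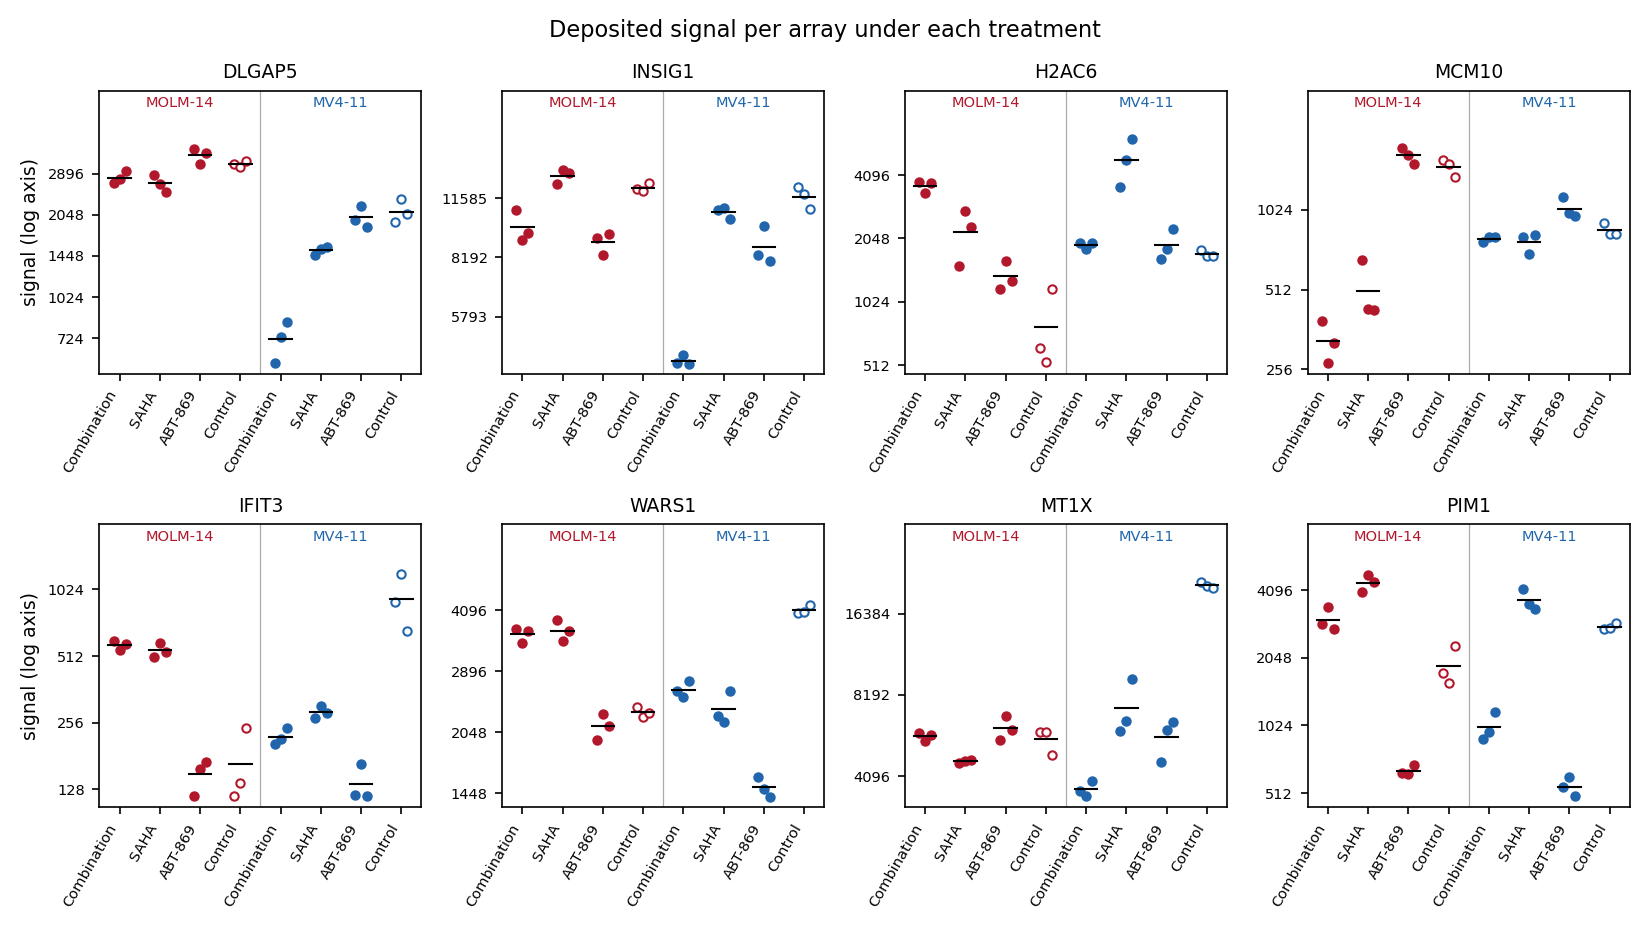
Deposited signal of 8 named probe sets on each array (log axis) under Combination, SAHA, ABT-869 and Control, with MOLM-14 in red on the left and MV4-11 in blue on the right of each panel, and bars at the arithmetic mean of 3. DLGAP5 and INSIG1 are lowest on the MV4-11 combination arrays, and MCM10 is low on the MOLM-14 arrays with SAHA or the combination.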

How the data were processed

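RNA from 24 cultures (2 lines, 4 treatments, 3 replicates) was measured on Affymetrix U133 Plus 2.0 arrays. The intensity of each probe set was used as deposited by the authors, on a linear scale, with every array scaled to the same trimmed mean as the values show. The software behind it was not given in the sources used here. Columns were mapped to groups by their titles. The values hold no read depth, so the number of arrays limits the precision. Of 54675 probe sets 62 controls were left out. Signals under 32 were set to 32, log2 was taken without further normalization, and limma 3.58.1 (R 4.3.3) was fitted over 24 arrays and 8 groups, with the interaction as a contrast and Benjamini-Hochberg adjustment over 54613 probe sets at 0.05. Platform annotation gave 1 gene to 41091 probe sets, several to 1801 and none here to 11721, and 41037 were found by gene identifier. In lists the probe set with the highest mean stood for a gene. Members and lists were chosen with earlier results of these data known. Named probe sets are the 12 largest differences per direction among called probe sets of 1 gene with at least 2 of 3 arrays above 32 in each group (1 per gene), the 2 highest and 2 lowest called members of each list, and FLT3, PIM1 and PTP4A3, and other list members were picked after their values were seen. Promoters are the first RefSeq entry per symbol. Alternatives are given in the closing section. The fit was also run on simulated data with independent noise and equal group means, with differences planted only in brighter probe sets. That run does not cover baseline differences between the lines, differences in dim probe sets or shifts of whole arrays.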

Additional observations from a re-analysis of the deposited data

Results flagged for a closer look

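The difference between the lines was tested as an interaction in the same fit over 24 arrays, and each probe set named by the rule and past the threshold is given here with its difference (MOLM-14 minus MV4-11, log2) and no explanation. In all 5167 of 54613 probe sets met the threshold. Groups of 3 arrays are too small to test single arrays as outliers. The 12 largest positive differences were 4.33 for IFIT1, 3.89 for IFIT3, 3.88 for IFIT2, 3.61 for RGS1, 3.20 for LINC01512, 3.17 for TM6SF1, 3.04 for APOL4, 2.93 for MT1E, 2.78 for ENDOV, 2.77 for TRIB3, 2.75 for ATF5 and 2.73 for MT1HL1. The 12 largest negative differences were -3.76 for ALDH4A1, -3.47 for SLC19A1, -3.43 for TMEM201, -2.77 for GPRIN1, -2.67 for CCNE2, -2.67 for FOXRED2, -2.64 for S100A8, -2.61 for MED27, -2.49 for TUBGCP5, -2.48 for CDC25A, -2.34 for HELLS and -2.27 for CCNE1. The mitosis and spindle list gave 2.0 for HMMR and 1.40 for DLGAP5. For DNA replication they were -2.10 for MCM10, -2.05 for CLSPN, 0.75 for PRIM1 and 0.47 for ORC4. In nucleotide supply they were -2.02 for PFAS and -1.47 for CAD. The homologous recombination and Fanconi pathway list gave -1.37 for RAD54L, -1.36 for XRCC3 and 0.67 for MND1. For G1/S regulators they were 2.01 for CDKN1C and 1.46 for CDKN2D. In ATF4 and amino acid response they were 2.47 for CHAC1. The aminoacyl-tRNA synthetases list gave -1.16 for RARS1, -0.93 for FARSA, 1.29 for WARS1 and 0.89 for CARS1. For cholesterol biosynthesis and SREBP targets they were -0.46 for PMVK, 1.18 for MSMO1 and 1.04 for INSIG1. In STAT5 targets they were 2.19 for PIM1 and 1.47 for SOCS1. The ERK feedback and immediate early genes list gave -1.63 for EGR1, -0.85 for SPRED1, 1.32 for PHLDA1 and 1.23 for DUSP6. For interferon-induced genes they were -1.15 for TRIM22. In monocyte and macrophage genes they were -2.24 for S100A9, 1.05 for ITGAX and 0.98 for LGALS3. The primary granule proteins list gave -2.24 for PRTN3 and -1.97 for MPO. For MHC class II genes they were 0.97 for HLA-DRB1 and 0.69 for HLA-DRA. In p53 targets they were -1.88 for AEN, -0.79 for BAX, 1.07 for PMAIP1 and 0.77 for CCNG1. The BCL2 family list gave 1.96 for BCL2A1. For ribosome biogenesis they were -1.59 for POLR1A and -1.42 for TSR1. In HOXA cluster and KMT2A fusion targets they were 0.81 for RUNX2 and 0.76 for PBX3. The unfolded protein response and heat shock list gave -1.38 for HSPE1, -1.04 for HSPH1, 0.67 for EDEM1 and 0.64 for SEL1L. For histone genes with polyadenylated transcripts they were 2.18 for H2AC6 and 1.92 for H2BC5. In histone deacetylases they were -0.64 for HDAC4 and 0.84 for HDAC9. The metallothioneins list gave 2.55 for MT1X and 2.52 for MT1E. For glycolysis and hypoxia response they were 1.85 for ALDOC and 1.59 for ENO2. In lysosome they were -1.25 for CTSA, -0.74 for LAMP1, 0.80 for SCARB2 and 0.66 for NPC2. Of genes the study examined, the values were 0.49 for FLT3 and 0.82 for PTP4A3. The other PTP4A3 probe set, which is the one the paper listed, had no call.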

How the results depend on the processing

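The direction of each named difference held under all alternatives run, namely floors of 1 and 64, quantile normalization, centred arrays, dim probe sets left out, limma-trend, the replicate block, 12 arrays in place of 24, 3 arrays left out together, and each of the 12 arrays left out in turn. With centred arrays the positive calls numbered 1178 in place of 2444, and the rises in MOLM-14 1862 in place of 3193, where the median difference over all probe sets was -0.093. The other total counts stayed within 1.5 times. The total of 5167 differing probe sets was 3577 with a floor of 1, 3981 with 12 arrays, 4613 without MV4-11 Combination replicate 3, MOLM-14 Control replicate 3 and MOLM-14 Combination replicate 1 together, and 4316 to 5005 with 1 array left out. Deviations of same-numbered Combination and Control arrays correlated at 0.00315 to 0.0326 in MV4-11 and at -0.051 to 0.217 in MOLM-14, so the numbers were not taken as pairs, and a replicate block gave 2335 positive and 2574 negative calls. Of 1044 values of named probe sets with 1 array left out, 32 lost the call, for GPRIN1, MED27, HDAC4, HLA-DRA and ITGAX. GPRIN1 reached adjusted p = 0.0682 without MV4-11 Control replicate 3, MED27 0.0576 without MV4-11 Control replicate 2, HDAC4 0.0669 without MV4-11 Control replicate 2, HLA-DRA 0.0847 without MOLM-14 Combination replicate 3 and ITGAX 0.103 without MOLM-14 Control replicate 2. Of 783 values under the other alternatives, 23 lost the call. Of the list counts, 29 of 576 with 1 array left out and 37 of 432 otherwise moved by over 1.5 times, and the median changed sign for ERK feedback, monocyte, and unfolded protein response genes. Signals under 32, 30.3% of all, carry no order after flooring, and with 3 cultures per group the median standard error of a difference above the median signal was 0.238. The causes were not tested.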

Other observations

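Of 12 genes of the HOXA cluster and targets of KMT2A fusions, 7 were positive and 0 negative (median 0.45). MEIS1 and PBX3, cofactors of HOXA proteins, had differences of 0.68 and 0.76, both falling in MV4-11 (-0.49 and -0.68). The RUNX2 probe set with the highest mean rose in MOLM-14 (0.80) and differed by 0.81, but of its 6 probe sets another one, near the floor, was called at -1.08. MYB (-0.07) had no call. With centred arrays 4 members of this list were positive.

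Chaperones and genes of the unfolded protein response differed in both directions, and the members named here were chosen after their values were seen. HSPE1 (-1.38), HSPH1 (-1.04), DNAJA1 (-1.03) and HSP90AA1 (-0.97), chaperones of the cytosol and mitochondria, were negative, as were CALR (-0.81) and SDF2L1 (-0.89) of the endoplasmic reticulum. XBP1 (0.57), HERPUD1 (0.59), SEL1L (0.64) and EDEM1 (0.67), which act in the unfolded protein response and in degradation from the endoplasmic reticulum, were positive. The list had 5 positive and 6 negative of 24, and the positive count was 1 with centred arrays, where EDEM1 was at adjusted p = 0.0564 by limma, and 3 with a floor of 1. Of 27 lysosomal genes 8 were positive and 4 negative, with 13 rising and 1 falling in MOLM-14 and 10 rising and 2 falling in MV4-11, and 0 were positive with centred arrays and 5 with a floor of 1. CTSA (-1.25) and LAMP1 (-0.74) were on the negative side and SCARB2 (0.80) and NPC2 (0.66) on the positive side. Of 23 p53 targets 3 were positive and 4 negative. Without MV4-11 Combination replicate 3 the positive count was 5, and without MV4-11 Combination replicate 2, or with a floor of 1, the negative count was 2. Of 11 MHC class II genes 2 were positive and 0 negative (18.2%, near the 15.4% of all genes), and 1 was positive with centred arrays or a floor of 1.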
